A study of Homo sapiens with 12 samples.

Results

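The genes described here are CTCF and 9 genes of the cohesin complex and its loading and release: RAD21, SMC1A, SMC3, STAG1, STAG2, NIPBL, WAPL, PDS5A and PDS5B. They were chosen by name, because complexes that contain BRD9 are known to lie at CTCF sites, though earlier results of these data were known. All 10 were found among the 57820 gene identifiers of the deposited tables, and all 10 passed the filter on low counts that left 15750 genes for testing.

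The samples were 12 libraries of messenger RNA from G401, a cell line from a human malignant rhabdoid tumour whose genotype is SMARCB1(-/-). Doxycycline induced either GFP, the control protein, or SMARCB1, which belongs to the core of the canonical SWI/SNF (BAF) chromatin remodellers. Each kind of cell was kept for 24 h in DMSO, the solvent, or in dBRD9-A, a compound that marks the BRD9 protein for destruction by the proteasome. The 4 groups were therefore GFP cells in DMSO, GFP cells in dBRD9-A, SMARCB1 cells in DMSO and SMARCB1 cells in dBRD9-A, with 3 libraries each. All of them descend from 1 cell line, all were induced with doxycycline, and all lack the cell's own SMARCB1. The labels do not say whether the libraries of a group came from separate cultures, so p-values measure only the spread between these libraries, which may be technical. In bulk RNA, fewer cells of a kind and less RNA per cell cannot be told apart.

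Cohesin is a ring of SMC1A, SMC3 and the closing subunit RAD21, to which a STAG protein, either STAG1 or STAG2, binds. NIPBL loads the ring onto DNA and drives it to extrude loops, and WAPL opens it again with the help of PDS5A or PDS5B. CTCF is a zinc finger protein that binds a long DNA motif, and cohesin that meets it in the right orientation stops there, so loops and domains tend to end at CTCF sites. The same ring holds sister chromatids together until mitosis, which makes most of these genes essential for dividing cells. BRD9 belongs to the non-canonical BAF complex, a form of SWI/SNF that has no SMARCB1 and on which rhabdoid cells depend.

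Libraries held 34.97 to 58.54 megacounts (1 megacount is 1e6 counts) assigned to genes. Levels below are counts per megacount (CPM) on library sizes scaled by TMM, the trimmed mean of M values, which sets the bulk of genes as the reference. The check of the GFP and SMARCB1 labels was met: SMARCB1 had 0 to 2 counts in the GFP libraries, against 1875 ± 59.4 CPM in SMARCB1 cells kept in DMSO and 1307 ± 27.0 CPM in those kept in dBRD9-A (SD, n = 3). BRD9 messenger RNA, which a degrader of the protein need not lower, averaged 38.3, 41.1, 46.9 and 47.5 CPM in the order of the groups above. It does not check the dBRD9-A labels, and these libraries hold no measure of BRD9 protein. Markers of other cells were at the floor, with 0 counts of the leukocyte genes PTPRC and CD3E in each library and 0 to 4 counts of the red blood cell gene HBB. RNA spike-ins (ERCC, synthetic transcripts of which 40 were listed) took 1.29% ± 0.0198 of counts in GFP cells in DMSO but 1.02% ± 0.0493 in dBRD9-A, and 1.14% ± 0.0630 in SMARCB1 cells in DMSO but 1.25% ± 0.0623 in dBRD9-A (SD, n = 3). How they were added is not given in the sources used here. When libraries were scaled to the spike-ins, the median log2 change over all genes went from 0.00 to 0.17 for SMARCB1 in DMSO and from 0.01 to -0.32 for SMARCB1 in dBRD9-A. The same scaling moved the median from 0.00 to 0.36 for dBRD9-A in GFP cells, from 0.00 to -0.14 for dBRD9-A in SMARCB1 cells and from 0.01 to -0.49 for the interaction. A rise or fall below is thus one against the bulk of genes, and where spike-in scaling turned that of a member, the turned value stands beside it.

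Across the 12 libraries the members were evenly expressed. Counts of a member in a library ran from 1309 to 20229. How much of the replicate spread of a member was counting noise was not computed. The highest library exceeded the lowest by 1.09-fold for PDS5A and SMC1A and by 1.10-fold for WAPL, and by 1.64-fold for PDS5B, the widest range of the 10. The replicate SD, pooled over the groups as a root mean square, ran from 1.55% of the mean for STAG2 to 7.38% for NIPBL. Genes are compared with themselves across groups only, since no gene lengths of the authors' annotation were used.

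**Figure D1:**
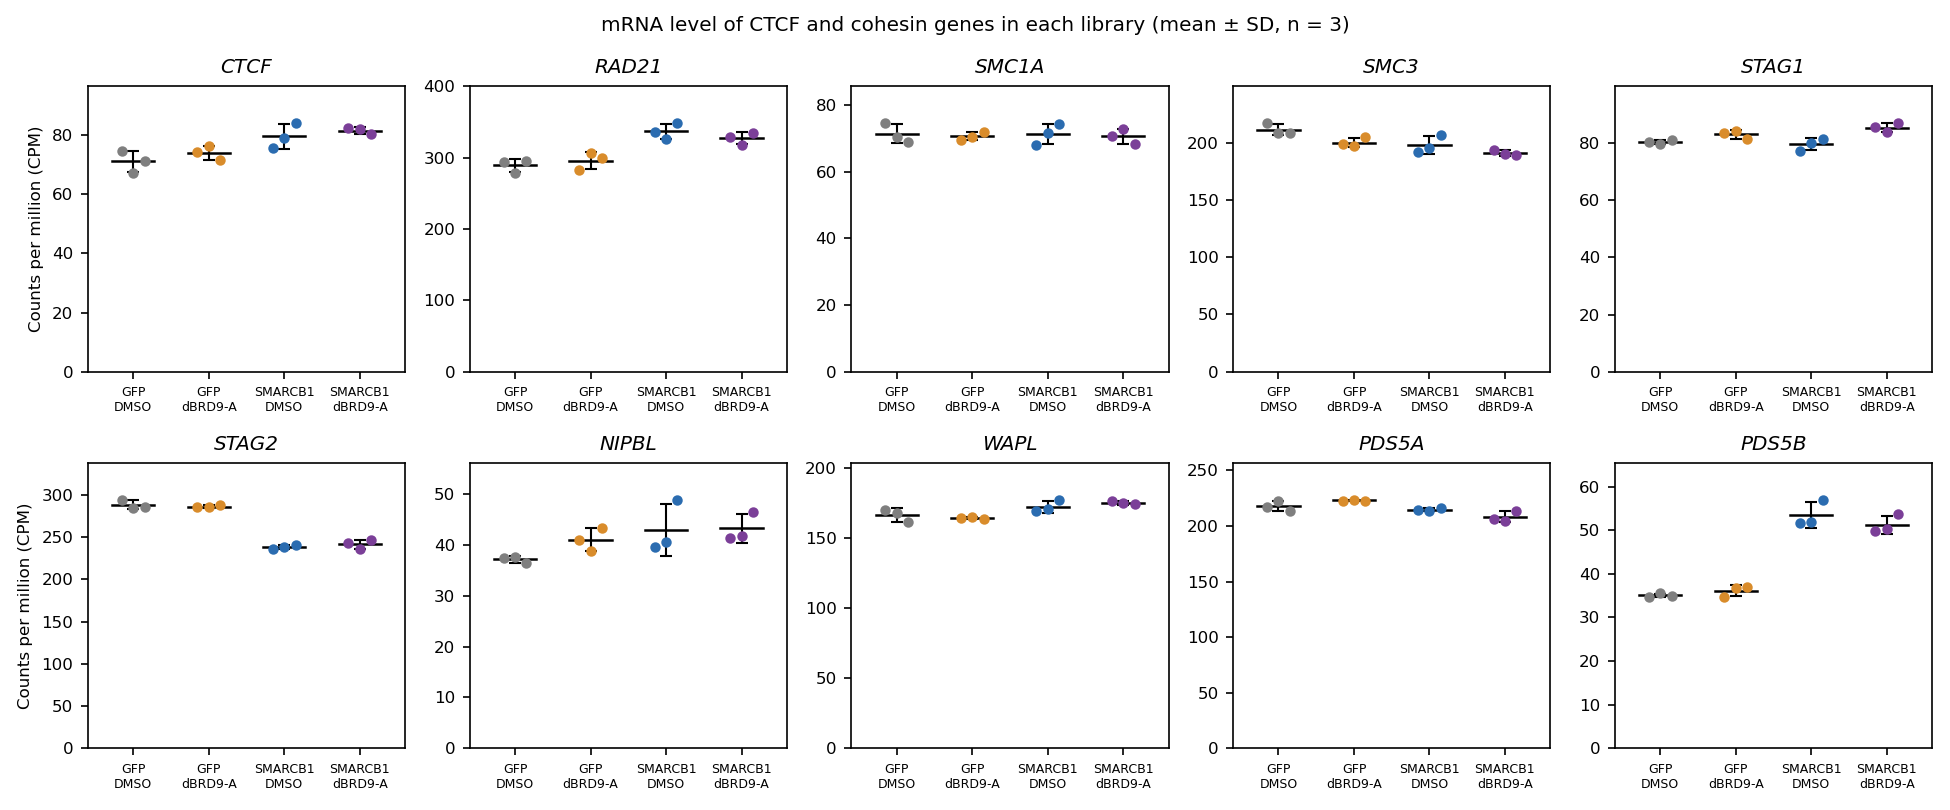
The plot shows the level (CPM, axes starting at 0) of each of the 10 genes in each library as points, by group, with the group mean as a bar and the SD as error bars (n = 3). PDS5B sits near 35 CPM in the GFP libraries and above 49 CPM in the SMARCB1 libraries, STAG2 steps down from above 285 CPM to below 247 CPM, and the dBRD9-A libraries lie close to their DMSO partners.

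The comparison of SMARCB1 with GFP cells addresses how these transcripts differ once the missing SWI/SNF subunit is restored. In DMSO, 6 of the 10 members passed an adjusted p of 0.05 in edgeR's quasi-likelihood test, against 65% of all genes tested. The 4 higher ones were CTCF, RAD21, NIPBL and PDS5B, where 33.5% of all genes were called higher, and the 2 lower ones were STAG2 and SMC3, where 31.6% were called lower. The replicates of the 2 groups did not overlap for 6 of 10 members, against 68.7% of all genes. The members' share is thus near that of all genes, and their median absolute log2 change of 0.13 was below the 0.28 of all genes. With spike-in scaling 8 of 10 were called, all of them higher, where 59.8% of all genes were called and 43.4% were called higher.

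PDS5B, a subunit that binds the ring and takes part both in its release and in its lasting hold on sister chromatids, had the largest change of the 10. It measured 34.8, 35.5 and 35.0 CPM in GFP cells in DMSO against 51.7, 51.8 and 57.0 CPM in SMARCB1 cells in DMSO. Each SMARCB1 library lay above each GFP library by far more than either group's spread. The rise was 0.61 on the log2 scale (SE 0.04), or 1.53-fold with a 95% interval of 1.43 to 1.63 (adjusted p = 9.31e-10). In dBRD9-A the levels were 34.7, 36.7 and 37.0 CPM against 49.9, 50.3 and 53.6 CPM, again with no overlap. There the rise was 0.51 (SE 0.04, adjusted p = 1.83e-08), and PDS5B was the only member called higher in both of these contrasts under spike-in scaling too, by 0.78 and 0.18 (adjusted p = 5.04e-12 and 0.0327). These contrasts share no library.

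Its paralogue PDS5A, which takes the same place on the ring, was not called in DMSO. PDS5A read 217.2, 222.4 and 213.9 CPM in GFP cells in DMSO and 214.2, 213.6 and 216.6 CPM in SMARCB1 cells in DMSO. These ranges overlap, the log2 change was -0.02 (95% interval -0.07 to 0.03) and the adjusted p was 0.52. In dBRD9-A, PDS5A fell by 0.10 (SE 0.03, adjusted p = 0.00289), from 222.7, 223.6 and 222.9 CPM to 206.4, 204.5 and 213.8 CPM, with no overlap. Spike-in scaling gave PDS5A 0.15 in DMSO (adjusted p = 0.0494), the other direction, and -0.43 in dBRD9-A.

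STAG2, the STAG protein that is often lost in tumours, was the member with the largest decrease. It read 294.4, 285.2 and 285.4 CPM in GFP cells in DMSO and 236.0, 238.0 and 241.1 CPM in SMARCB1 cells in DMSO. The gap between the groups was many times the spread within them. STAG2 fell by 0.27 on the log2 scale (SE 0.03, adjusted p = 3.77e-08), to 0.827-fold with a 95% interval of 0.796 to 0.858. In dBRD9-A it went from 286.0, 285.3 and 288.1 CPM to 243.6, 236.0 and 246.2 CPM, and it fell by 0.24 (SE 0.03, adjusted p = 2.00e-07). Under spike-in scaling the value in DMSO was -0.11 and the call was lost (adjusted p = 0.165), while in dBRD9-A it was -0.57 (adjusted p = 7.90e-10).

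STAG1, the other STAG protein, read 80.2, 79.6 and 81.0 CPM in GFP cells in DMSO and 77.1, 79.8 and 81.2 CPM in SMARCB1 cells in DMSO, which overlap. Its log2 change was -0.02 in DMSO (95% interval -0.08 to 0.05, adjusted p = 0.66) and 0.04 in dBRD9-A (95% interval -0.02 to 0.10, adjusted p = 0.238). Spike-in scaling turned these to 0.15 (adjusted p = 0.0415) and -0.29 (adjusted p = 0.000199).

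**Figure D2:**
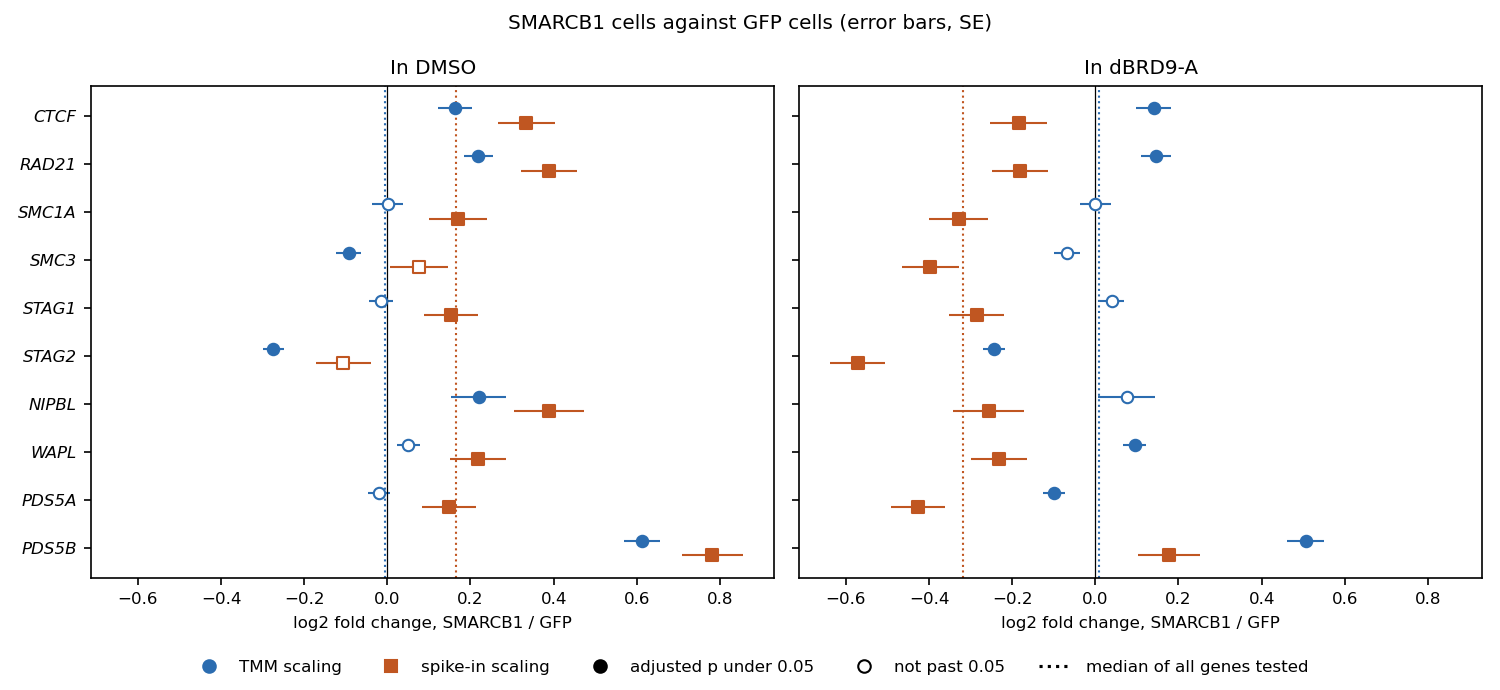
The plot gives the log2 fold change of SMARCB1 over GFP cells for each gene in DMSO (left) and in dBRD9-A (right), with SE bars; circles are TMM scaling, squares spike-in scaling, filled symbols have an adjusted p under 0.05, and dotted lines are the median of all genes under each scaling. PDS5B lies to the right of the other 9 genes and STAG2 to their left in both panels and under both scalings, while the squares shift as a block with the dotted line.

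A ratio of 2 genes within a library does not depend on how the library is scaled, and it was taken for the paralogue pairs (counts, not per length, so only groups are compared). The STAG2 to STAG1 ratio was 3.67, 3.58 and 3.53 in GFP cells in DMSO and 3.06, 2.98 and 2.97 in SMARCB1 cells in DMSO. In dBRD9-A it was 3.43, 3.39 and 3.55 in GFP cells and 2.85, 2.82 and 2.84 in SMARCB1 cells. All 6 SMARCB1 libraries lay below all 6 GFP libraries. Replicates of SMARCB1 and GFP cells did not overlap for 68.7% of all genes in DMSO and 66.2% in dBRD9-A. How many other gene pairs separate as fully was not tested. The ratios of both pairs reuse the counts above, so they are not further evidence for the changes of STAG2 or PDS5B. Over both treatments the STAG2 to STAG1 ratio was 0.828-fold in SMARCB1 cells, a log2 difference of -0.27. Its p of 0.005 in an exact two-sided permutation test within treatments is the smallest that test can give, and it became 0.025 after adjustment over the 10 ratio comparisons made.

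The PDS5B to PDS5A ratio moved the other way. It was 0.161 ± 0.00210 in GFP cells in DMSO and 0.249 ± 0.0122 in SMARCB1 cells in DMSO (SD, n = 3). In dBRD9-A it was 0.162 ± 0.00535 in GFP cells and 0.246 ± 0.00452 in SMARCB1 cells (SD, n = 3), and no SMARCB1 library overlapped a GFP library. Over both treatments the ratio was 1.53-fold higher, a log2 difference of 0.62, with the same exact permutation p of 0.005 and adjusted p of 0.025. Within a single treatment, 3 libraries against 3 cannot give an exact p under 0.1, which is what both ratios gave. With dBRD9-A in SMARCB1 cells the STAG2 to STAG1 ratio was 0.944-fold, with no overlap (exact permutation p = 0.1, adjusted p = 0.143). In GFP cells its replicates overlapped with dBRD9-A (0.962-fold, exact permutation p = 0.2). The PDS5B to PDS5A ratio overlapped with dBRD9-A in both kinds of cell (1.01-fold in GFP and 0.989-fold in SMARCB1 cells).

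**Figure D3:**
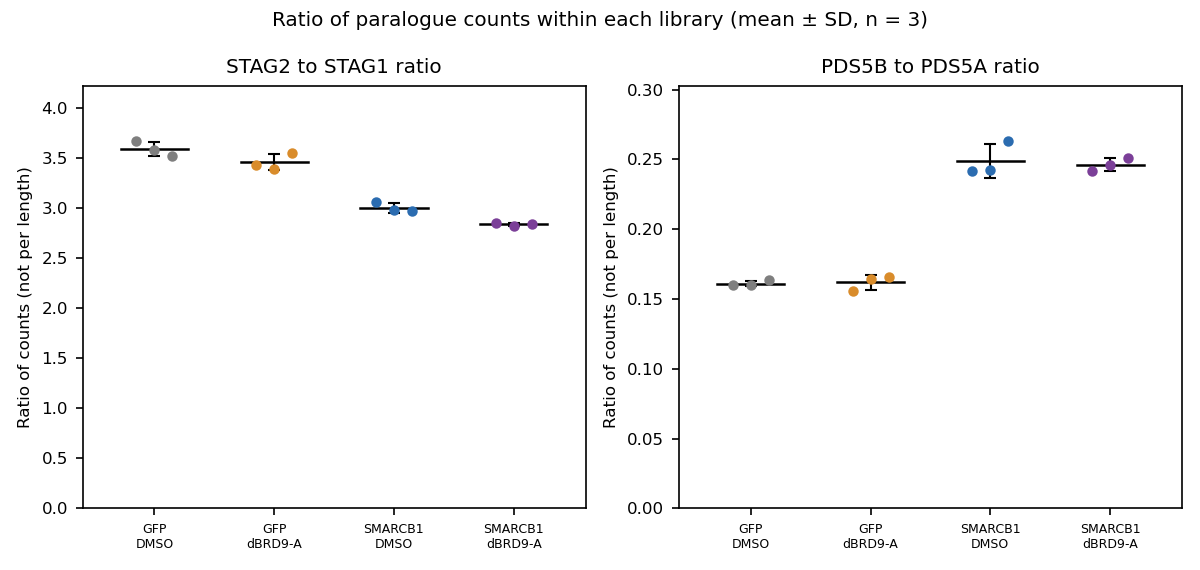
The plot shows the STAG2 to STAG1 ratio (left) and the PDS5B to PDS5A ratio (right) of counts in each library as points, by group, with the mean as a bar and the SD as error bars (n = 3; axes start at 0). The SMARCB1 libraries sit near 3.00 and 2.84 on the left, below the GFP libraries, and near 0.25 on the right, above them.

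The promoters of these genes were read because CTCF itself is a member. RefSeq promoters on GRCh38.p14, here the 250 bases before a transcript's start, were found for 9 of the 10 members (12 promoters in all), while RAD21 is named only. The sequences shown are those of PDS5B and STAG2, the members with the largest rise and fall, and of STAG1, the STAG2 paralogue and the only one whose promoter matched the core consensus of the CTCF motif. They run 5′ to 3′ on the gene's strand, and capitals mark the short CTCF core AGGGGGC in PDS5B, the short core AGATGGC in STAG2 and the match to the longer core consensus in STAG1. All motifs were searched on both strands.
PDS5B chr13:32586202-32586451 (+ strand): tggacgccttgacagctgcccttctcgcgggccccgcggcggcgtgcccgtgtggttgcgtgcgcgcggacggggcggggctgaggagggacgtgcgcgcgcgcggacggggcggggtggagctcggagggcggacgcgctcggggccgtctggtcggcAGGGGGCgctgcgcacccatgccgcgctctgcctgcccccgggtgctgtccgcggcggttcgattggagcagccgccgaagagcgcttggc
STAG2 chrX:123960310-123960559 (+ strand, first of 3 starts): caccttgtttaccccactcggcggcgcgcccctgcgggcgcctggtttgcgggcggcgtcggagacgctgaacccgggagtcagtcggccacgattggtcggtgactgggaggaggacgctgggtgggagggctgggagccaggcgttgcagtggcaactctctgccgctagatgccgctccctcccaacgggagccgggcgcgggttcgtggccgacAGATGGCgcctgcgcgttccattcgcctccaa
STAG1 chr3:136752379-136752628 (- strand): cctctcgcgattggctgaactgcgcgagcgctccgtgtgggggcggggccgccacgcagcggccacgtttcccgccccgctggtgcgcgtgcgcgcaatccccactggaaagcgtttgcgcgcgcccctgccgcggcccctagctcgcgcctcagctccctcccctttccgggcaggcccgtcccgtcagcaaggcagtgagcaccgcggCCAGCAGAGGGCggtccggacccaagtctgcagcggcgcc

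In the STAG1 promoter the core consensus matched as CCAGCAGAGGGC, beginning 40 bases before the start, and 0.427% of all 35116 promoters of this length hold such a match. The short core AGAGGGC lies inside that match and also occurs in the promoters of CTCF and PDS5A (7.35% of all promoters). AGGGGGC stands 91 bases before the start in PDS5B and 121 bases before the last of the 3 STAG2 starts (13.3% of all promoters). AGATGGC stands 32 bases before the first STAG2 start (3.34% of all promoters), and AGGTGGC was in none of the 9 genes' promoters (5.51% of all). The E2F-type strings TTTGGCGC, in NIPBL and STAG2, and TTTCCCGC, in SMC1A and STAG1, occur in 0.550% and 1.39% of all promoters. The GC box GGGCGG was in the promoters of all 9 genes, against 42.6% of all promoters. These matches describe the letters in the windows, and their part in the levels was not tested.

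CTCF, the boundary protein, rose by 0.16 in SMARCB1 cells in DMSO (SE 0.04, adjusted p = 0.00215), from 74.6, 67.2 and 71.1 CPM to 75.6, 78.9 and 83.8 CPM. The lowest SMARCB1 library was only just above the highest GFP library. In dBRD9-A it went from 74.1, 76.0 and 71.3 CPM to 82.3, 81.8 and 80.1 CPM, a rise of 0.14 (SE 0.04, adjusted p = 0.00713) that turned to -0.18 under spike-in scaling (adjusted p = 0.0169).

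Among the ring subunits, RAD21, the part that separase cuts at anaphase, read 294.2, 278.4 and 294.7 CPM in GFP cells in DMSO and 335.3, 326.3 and 348.0 CPM in SMARCB1 cells in DMSO. The groups did not overlap, and RAD21 rose by 0.22 (SE 0.04, adjusted p = 2.97e-05), or 1.16-fold. In dBRD9-A the levels were 281.9, 305.9 and 299.3 CPM against 328.5, 318.0 and 334.9 CPM, a rise of 0.15 (SE 0.04, adjusted p = 0.00163) that turned to -0.18 under spike-in scaling (adjusted p = 0.0165).

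The ATPase subunit SMC3 moved little: in DMSO it averaged 211 ± 4.95 CPM in GFP cells against 198 ± 7.82 CPM in SMARCB1 cells (SD, n = 3), and it fell by 0.09 (SE 0.03, adjusted p = 0.0132), a change that became 0.076 under spike-in scaling (adjusted p = 0.357). The call in DMSO was lost for SMC3 without GFP DMSO replicate 1 (adjusted p = 0.0734), SMARCB1 DMSO replicate 1 (0.0664) or SMARCB1 DMSO replicate 2 (0.0534). In dBRD9-A the SMC3 value was -0.07 (SE 0.03, adjusted p = 0.0631). That SMC3 value passed the threshold without GFP DMSO replicate 3 (0.0406), GFP dBRD9-A replicate 2 (0.0495), SMARCB1 DMSO replicate 1 (0.0499) or SMARCB1 DMSO replicate 3 (0.0326), and in a fit of the 2 groups alone (0.0304).

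Its ATPase partner SMC1A was the flattest member, at 71.3 ± 2.85 and 71.2 ± 3.05 CPM in GFP and SMARCB1 cells in DMSO and 70.5 ± 1.19 and 70.5 ± 2.19 CPM in dBRD9-A (SD, n = 3). Its log2 change was 0.00 in both contrasts, with 95% intervals of -0.08 to 0.08 in each, and under spike-in scaling it was 0.17 in DMSO (adjusted p = 0.0362) and -0.33 in dBRD9-A (adjusted p = 8.78e-05).

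NIPBL, the loader, read 37.3, 37.6 and 36.4 CPM in GFP cells in DMSO and 39.6, 40.5 and 48.9 CPM in SMARCB1 cells in DMSO. The last of these stood well above the other SMARCB1 libraries. NIPBL rose by 0.22 (SE 0.07, adjusted p = 0.00791), but without SMARCB1 DMSO replicate 3 the value was 0.11 and was not called (adjusted p = 0.0907). In dBRD9-A it averaged 41.0 ± 2.28 CPM in GFP cells and 43.2 ± 2.86 CPM in SMARCB1 cells (SD, n = 3), with overlapping libraries. The NIPBL value there was 0.07 (95% interval -0.07 to 0.22, adjusted p = 0.354), and -0.26 under spike-in scaling (adjusted p = 0.0075).

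WAPL, the release factor, averaged 166 ± 4.73 and 172 ± 4.36 CPM in GFP and SMARCB1 cells in DMSO (SD, n = 3), a log2 value of 0.05 (95% interval -0.01 to 0.11, adjusted p = 0.12). In dBRD9-A it rose by 0.09 (SE 0.03, adjusted p = 0.00667), from 163.9, 164.6 and 163.3 CPM to 176.5, 174.6 and 173.9 CPM, and under spike-in scaling this became -0.23 (adjusted p = 0.00241).

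In dBRD9-A, then, 6 of 10 members were called in SMARCB1 against GFP cells, against 63.3% of all genes. CTCF, RAD21, WAPL and PDS5B were higher, where 33% of all genes were, and STAG2 and PDS5A were lower, where 30.4% were. Replicates did not overlap for 7 of 10 members, against 66.2% of all genes, and the median absolute log2 change was 0.10, against 0.27 over all genes. Spike-in scaling called all 10 (71% of all genes), with PDS5B higher (13.5% of all genes) and the other 9 lower (57.4% of all genes).

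In SMARCB1 cells in DMSO, replicate 3 had the highest of the 3 values for all 10 members, a place it took for 32.3% of all genes tested. That library was also the deepest of its group, at 58.4 megacounts against 38.4 and 39.8, with the lowest spike-in share, 1.08%. The part of this library in the results was not tested beyond leaving it out. That left 5 of the 10 members called in DMSO, where 9723 of 16020 genes were called.

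The comparison of dBRD9-A with DMSO addresses whether these transcripts respond to a compound aimed at a subunit of the complex that lies at CTCF sites. The loss of BRD9 protein was not measured in these libraries. In GFP cells none of the 10 members was called by edgeR after 24 h of dBRD9-A, against 15.9% of all genes. At an unadjusted p under 0.05 there were 2, SMC3 and NIPBL, and the share of all genes at that p was not computed. DESeq2's Wald test called 0 of the 10 members, where it called 2163 of 14804 genes. The log2 changes ran from -0.08 for SMC3 to 0.14 for NIPBL, and their 95% intervals from -0.14 to 0.29. Under TMM scaling a change beyond 1.22-fold thus lies outside each of the 10 intervals, taken singly. The median absolute change under that scaling was 0.04, against 0.09 over all genes. With spike-in scaling the upper ends of the intervals reached 1.60-fold.

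Replicates did not overlap for 4 of the 10 (SMC3, STAG1, NIPBL and PDS5A), against 34% of all genes. SMC3 averaged 211 ± 4.95 CPM in DMSO and 200 ± 4.23 CPM in dBRD9-A (SD, n = 3), a log2 value of -0.08 (SE 0.03, adjusted p = 0.1). NIPBL read 37.3, 37.6 and 36.4 CPM in DMSO and 41.0, 38.8 and 43.3 CPM in dBRD9-A, and its value of 0.14 (SE 0.07) had an adjusted p of 0.176. NIPBL was called with no filter on low counts (0.13, adjusted p = 0.0341) and in a fit of the 2 groups alone (0.15, adjusted p = 0.018). Spike-in scaling called all 10 higher, by 0.28 to 0.51, where 71.8% of all genes were called and 70.4% were called higher.

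**Figure D4:**
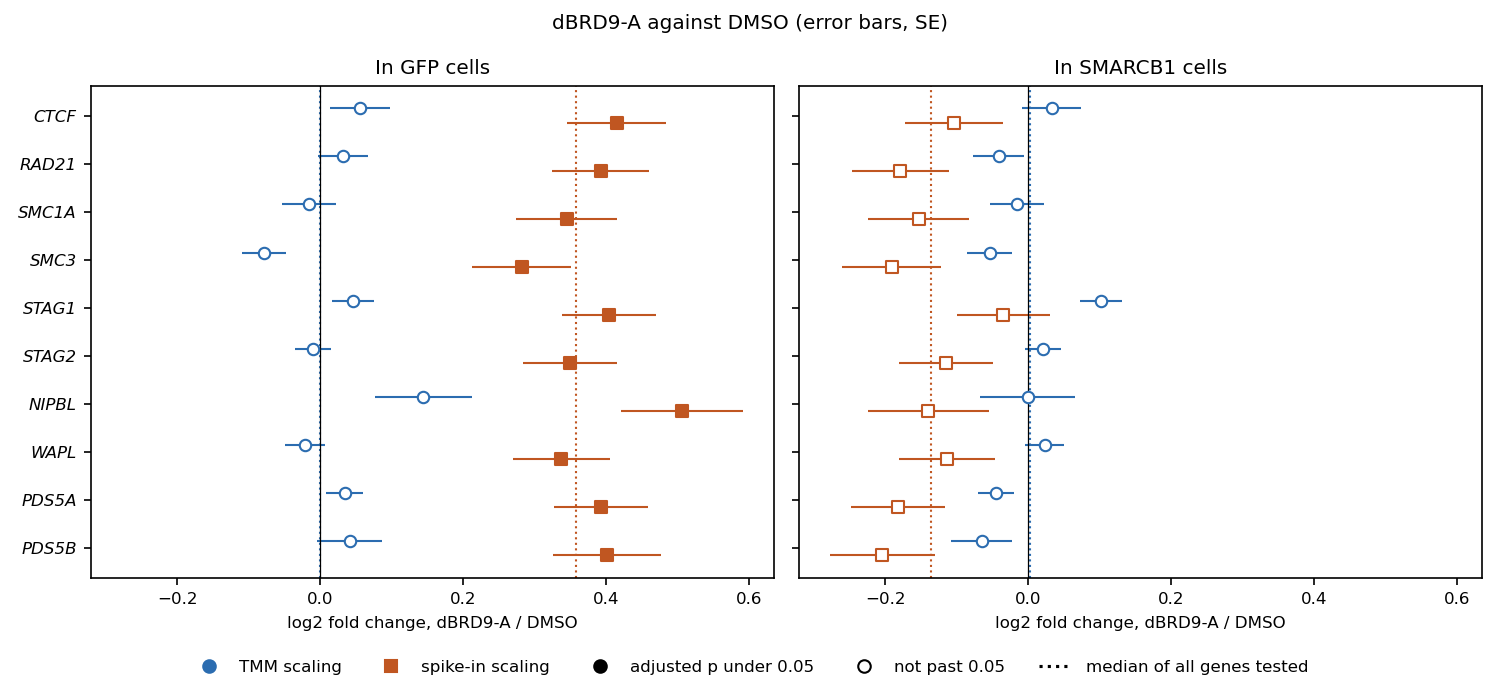
The plot gives the log2 fold change of dBRD9-A over DMSO for each gene in GFP cells (left) and in SMARCB1 cells (right), with SE bars and the symbols of the plot of SMARCB1 effects. The circles (TMM scaling) lie between -0.08 and 0.14, all open, and the squares (spike-in scaling) follow the dotted median of all genes, at 0.36 on the left and -0.14 on the right.

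In SMARCB1 cells dBRD9-A also gave 0 calls among the 10 by edgeR, against 1.93% of all genes. STAG1 alone had an unadjusted p under 0.05, and the share of all genes at that p was not computed. DESeq2's Wald test called 0 of the 10 members, where it called 349 of 12580 genes. STAG1 read 77.1, 79.8 and 81.2 CPM in DMSO and 85.4, 83.7 and 86.7 CPM in dBRD9-A, which do not overlap. Its log2 value was 0.10 (SE 0.03, adjusted p = 0.0946), against -0.03 under spike-in scaling, and it was the 1 member of 10 with no overlap, against 16.9% of all genes. The 10 values ran from -0.06 for PDS5B to 0.10 for STAG1, with 95% intervals from -0.15 to 0.16. Spike-in scaling called 0 (5.54% of all genes), though it also turned CTCF from 0.03 to -0.10, STAG2 from 0.02 to -0.12 and WAPL from 0.02 to -0.11. SMARCB1 itself averaged 1875 CPM in these cells in DMSO and 1307 CPM in dBRD9-A. The part of that difference in this contrast and in the interaction was not tested.

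The difference between the dBRD9-A effects in SMARCB1 and GFP cells, the interaction, was called for 0 of 10 members by edgeR, against 3.8% of all genes. PDS5A alone had an unadjusted p under 0.05 (-0.08, SE 0.04, adjusted p = 0.298), and the share of all genes at that p was not computed. DESeq2's Wald test called 0 of the 10 members, where it called 631 of 12023 genes. The values ran from -0.14 for NIPBL to 0.06 for STAG1, with 95% intervals from -0.35 to 0.14. Spike-in scaling called all 10 lower, where 71.6% of all genes were called and 71.1% were called lower. The contrasts of the dBRD9-A effect share libraries with those of the SMARCB1 effect, so their values stand side by side and are not evidence for each other.

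Ordered by group mean, the levels of PDS5B, RAD21 and STAG2 fell into 2 steps, with the GFP groups on one and the SMARCB1 groups on the other, and within each step the libraries overlapped. In the single contrasts SMARCB1 and GFP replicates did not overlap for 68.7% of all genes in DMSO and 66.2% in dBRD9-A. The share of all genes that fall into such steps over both treatments was not computed. For CTCF and WAPL the order put both GFP groups below both SMARCB1 groups, but each neighbour in that order overlapped the next. SMC1A had overlapping neighbours throughout. NIPBL was lowest in GFP cells in DMSO, apart from the next group, and its other 3 groups overlapped. STAG1 had lower means in both DMSO groups than in both dBRD9-A groups, but the highest SMARCB1 library in DMSO and the lowest GFP library in dBRD9-A, both at 81.2 CPM, overlapped. SMC3 stood apart only in GFP cells in DMSO, its highest group, and PDS5A only in GFP cells in dBRD9-A, its highest group.

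The genes whose pattern over the 12 libraries was most like that of CTCF were LRRFIP1, COQ2 and MAPKAP1, of 12503 genes with a mean of at least 50 counts. Likeness was the root mean square difference of log2 CPM, each gene centred on its own mean, and was 0.03 for LRRFIP1, 0.03 for COQ2 and 0.04 for MAPKAP1. Their group means ran from 54.9, 47.0 and 108 CPM in GFP cells in DMSO to 62.1, 52.2 and 123 CPM in SMARCB1 cells in dBRD9-A. Of the cohesin genes RAD21 came closest, at rank 145, and STAG2 and PDS5B were at ranks 7410 and 7467.

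Genes that work with cohesin were taken from a list of 8: MAU2, ESCO1, ESCO2, CDCA5, SGO1, HDAC8, PTTG1 and ESPL1. Over this and the other lists below, 37 of 53 tested genes, or 69.8%, were called in SMARCB1 against GFP cells in DMSO, near the 65% of all genes. In dBRD9-A 36 of 53, or 67.9%, were called, near the 63.3% of all genes. With dBRD9-A in GFP cells 10 of 53, or 18.9%, were called, near the 15.9% of all genes. Of the 8 genes that work with cohesin, 5 were higher and 1 lower in DMSO, against 33.5% and 31.6% of all genes. With spike-in scaling 5 were higher and 0 lower in DMSO, where 59.8% of all genes were called and 43.4% were called higher. In dBRD9-A 4 were higher and 2 lower, against 33% and 30.4% of all genes. With spike-in scaling these were 0 and 4, against 13.5% and 57.4% of all genes. ESPL1, the separase that cuts RAD21, rose by 0.37 in DMSO (adjusted p = 7.50e-08), from 77.4 ± 4.41 to 99.9 ± 2.43 CPM (SD, n = 3). The acetyltransferases that lock cohesin on DNA went apart: ESCO2 rose by 0.25 (adjusted p = 1.39e-06), and ESCO1 fell by 0.29 (adjusted p = 8.83e-06) with its call lost under spike-in scaling (-0.12). HDAC8, which removes that acetyl mark, was not called (-0.05, adjusted p = 0.543). With dBRD9-A, 1 of 8 was called in GFP cells and 0 in SMARCB1 cells, where 15.9% and 1.93% of all genes were. ESPL1 fell by 0.15 in GFP cells (adjusted p = 0.0105), not called without GFP DMSO replicate 2 (-0.10, adjusted p = 0.0516) and turned to 0.21 by spike-in scaling. Forms used in germ cells were near the floor: CTCFL, SMC1B and RAD21L1 had 0 to 6 counts in a library. Of these RAD21L1 had 0 to 1 counts in the GFP libraries, but 4 to 6 in SMARCB1 cells in DMSO and 2 to 5 in those in dBRD9-A. STAG3 and REC8 had 5 to 26 counts. Neither of these last was called in any contrast, but STAG3, at -0.61 in SMARCB1 cells in DMSO (adjusted p = 0.236), was called without SMARCB1 DMSO replicate 2 (-1.47, adjusted p = 0.00716).

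Other SMC complexes were read beside cohesin. Of 8 condensin genes, which compact mitotic chromosomes, 6 were higher and 1 lower in SMARCB1 cells in DMSO. Of all genes 33.5% were higher and 31.6% lower there. The list was led by NCAPH2 (0.44, adjusted p = 3.34e-08), SMC4 (0.31, adjusted p = 1.36e-07) and NCAPD2 (0.30, adjusted p = 2.83e-08). With spike-in scaling 7 were higher and 0 lower, where 59.8% of all genes were called and 43.4% were called higher. In dBRD9-A 4 condensin genes were higher and 1 lower, where 33% and 30.4% of all genes were. With spike-in scaling these were 0 and 6, against 13.5% and 57.4% of all genes. For dBRD9-A against DMSO, 2 of the 8 condensin genes were called in GFP cells and 1 in SMARCB1 cells, all higher, where 15.9% and 1.93% of all genes were called. Spike-in scaling called 8 and 0 of them, where 71.8% and 5.54% of all genes were called. In GFP cells NCAPD2 read 226 ± 6.66 CPM in DMSO and 256 ± 4.22 CPM in dBRD9-A (SD, n = 3). NCAPH was not called in DMSO (0.03, adjusted p = 0.459), but with dBRD9-A it rose by 0.30 in GFP cells, from 54.7 ± 2.10 to 67.4 ± 1.81 CPM (SD, n = 3, adjusted p = 9.77e-06). NCAPH also rose with dBRD9-A by 0.19 in SMARCB1 cells (adjusted p = 0.00629), where spike-in scaling gave 0.06.

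Of 8 genes of the SMC5/6 complex and its recruiters, which act in DNA repair, 3 were higher and 3 lower in DMSO. Of all genes 65% were called there. With spike-in scaling 5 were higher and 1 lower, where 59.8% of all genes were called and 43.4% were called higher. In dBRD9-A 4 were higher and 3 lower, where 63.3% of all genes were called. With spike-in scaling these were 1 and 4, against 13.5% and 57.4% of all genes. SLF2, which brings SMC5/6 to DNA, had the largest change of all the listed SMC genes: it fell by 1.49 in DMSO (adjusted p = 7.08e-18), from 252 ± 2.37 to 89.4 ± 2.62 CPM (SD, n = 3). Its partner SLF1 rose by 0.77 in DMSO (adjusted p = 1.28e-11), from 33.3 ± 0.265 to 56.9 ± 1.71 CPM (SD, n = 3), and SLF2 and SLF1 kept these directions under spike-in scaling. NSMCE2, a SUMO ligase of the complex, rose by 0.32 (adjusted p = 2.51e-05), and SMC6 was not called (0.07, adjusted p = 0.15) except without SMARCB1 DMSO replicate 1 (0.10, adjusted p = 0.0437). In GFP cells 2 of the 8 fell with dBRD9-A, where 15.9% of all genes were called: SLF2 by 0.32 (adjusted p = 2.60e-07) and NSMCE4A by 0.19 (adjusted p = 0.00395), which spike-in scaling turned to 0.04 and 0.17.

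Of 8 further proteins found at CTCF sites, 2 were higher and 5 lower in DMSO, where 33.5% and 31.6% of all genes were. With spike-in scaling 3 were higher and 1 lower, where 59.8% of all genes were called and 43.4% were called higher. In dBRD9-A 1 was higher and 5 lower, where 33% and 30.4% of all genes were. With spike-in scaling these were 0 and 8, against 13.5% and 57.4% of all genes. LDB1, which bridges enhancers and promoters, fell by 0.34 in DMSO (adjusted p = 1.44e-07), MAZ by 0.26 (adjusted p = 2.53e-07) and YY1 by 0.20 (adjusted p = 2.10e-06). Under spike-in scaling LDB1 was -0.17 (adjusted p = 0.0346), while MAZ and YY1 were -0.09 and -0.03 and lost their calls. ADNP was not called (0.00, adjusted p = 0.98). In GFP cells 3 of the 8 were called with dBRD9-A, where 15.9% of all genes were: ZNF143 rose by 0.42 (adjusted p = 1.68e-06), from 21.3 ± 0.743 to 28.7 ± 0.854 CPM (SD, n = 3), MAZ rose by 0.14 (adjusted p = 0.00181) and PATZ1 fell by 0.27 (adjusted p = 0.000503), the last turning to 0.08 under spike-in scaling.

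Proliferation genes were read because cohesin serves cell division. Of 19 listed, 11 were called in SMARCB1 cells in DMSO, 9 higher and 2 lower, where 65% of all genes were called. With spike-in scaling 16 were higher and 0 lower, where 59.8% of all genes were called and 43.4% were called higher. In dBRD9-A 12 were called, 10 higher and 2 lower, where 63.3% of all genes were called. With spike-in scaling 1 was higher and 14 lower, against 13.5% and 57.4% of all genes. Under TMM scaling the median log2 change of the list was 0.07 in both contrasts, against 0.00 and 0.01 over all genes. Their summed level was 5115 ± 36.4 CPM in GFP cells in DMSO, 5100 ± 83.8 CPM in the same cells in dBRD9-A, and for SMARCB1 cells 5321 ± 33.9 CPM in dBRD9-A (SD, n = 3) and from 5427 to 5456 CPM in DMSO. The lowest SMARCB1 library, at 5282 CPM, was above the highest GFP library, at 5197 CPM. CCNE2, a cyclin of the G1/S step, rose by 0.64 in DMSO (adjusted p = 1.46e-09), and MKI67 rose by 0.67 (adjusted p = 0.000176) with a wide spread, 69.7 ± 14.6 CPM against 44.3 ± 3.28 CPM (SD, n = 3). CCNB2, a mitotic cyclin, rose by 0.42 (adjusted p = 1.52e-10), and CDK1, its kinase, was not called (-0.05, adjusted p = 0.201). The 2 lower genes, named after their values were seen, were MCM7, which fell by 0.14 (adjusted p = 0.000514), and PCNA, which fell by 0.08 (adjusted p = 0.0146), and spike-in scaling turned them to 0.03 and 0.09. For dBRD9-A against DMSO, 2 of the 19 were called in GFP cells and 0 in SMARCB1 cells, where 15.9% and 1.93% of all genes were. AURKB rose by 0.13 (adjusted p = 0.0171) and RRM2 fell by 0.11 (adjusted p = 0.0219) in GFP cells. Each lost its call when some single libraries were left out. Spike-in scaling called all 19 higher in GFP cells, where 70.4% of all genes were called higher. The part of cell division in the changes of cohesin genes was not tested.

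The annotation adds a limit on counts from shared stretches. In GENCODE release 29, 9 of the 10 genes overlap another annotated gene and SMC3 overlaps 0, and whether the counting used strand is not stated in the sources used here. STAG2 overlaps 9, among them TENM1 on the opposite strand, and PDS5B overlaps 1, RNY1P4 on the opposite strand.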

How the data were processed

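Per the labels' protocols, the RNA came from an RNeasy Plus kit and was made into libraries by TruSeq Stranded mRNA chemistry. The authors deposited 3 tables of expected counts per gene, and the 6 columns that 2 tables share were identical. The submitters' processing notes name STAR, RSEM 1.3.1, DESeq2, GRCh37 and hg19, with no order; the annotation and strand use are not given in the sources used here. RSEM divides reads that fit several genes, and 2.572% of values were not whole.

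Counts were rounded, and spike-ins were left out of library sizes. Symbols matched 51996 identifiers. In R 4.3.3, edgeR 4.0.16 fitted a quasi-likelihood model to all 12 libraries with 1 coefficient per group, TMM factors (0.9765 to 1.016) and filterByExpr (minimum count 10). Benjamini-Hochberg adjustment was over 15750 genes, with a threshold of 0.05. All adjusted p-values of genes are edgeR's unless DESeq2 1.42.0 is named, and 95% intervals use the fit's t distribution. A ± is the SD over 3 libraries. Ratios were compared by exact two-sided permutation tests. The method was tested on simulated counts, with changes set only in SMARCB1 cells in DMSO and larger than those of most members. That test does not cover changes as small as most of those given here.

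The members and gene lists were chosen with earlier results of these data known. All 10 members are named. From each list, up to 3 called genes with the largest change in a contrast and 1 gene not called are named, with the 3 genes most like CTCF. SMARCB1 checks the GFP and SMARCB1 labels, and BRD9 is given beside it. Paralogues such as STAG1 and STAG2 can share reads, which RSEM divides. Overlapping genes were read from GENCODE 29 by identifier, and promoters from RefSeq GRCh38.p14, which is not the authors' build. No column lacked a sample. No 2 replicates agreed within counting noise (chi-square per degree of freedom 2.954 to 25.615). The highest value was that of SMARCB1 dBRD9-A replicates 2 and 3, and the next was 10.784. Without that replicate 2, 422 of 16009 genes were called with dBRD9-A in SMARCB1 cells and 862 for the interaction. Without that replicate 3 these were 196 and 490 of 15993, against 304 and 598 of 15750 in the main fit. In each of these fits 0 members were called in both contrasts. Alternatives tried were DESeq2 size factors, spike-in scaling, no filter, the DESeq2 test, the contrast's groups alone, a replicate block, a threshold of 0.01, leaving out each library and, for ratios, a pseudocount of 10 CPM.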

Additional observations from a re-analysis of the deposited data

Results flagged for a closer look

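2 of the 53 list genes tested (3.77%, against 3.8% of all genes), neither of them a member, had a response to dBRD9-A that differed between SMARCB1 and GFP cells by edgeR's test of the interaction. SLF2, a recruiter of SMC5/6, read 252 ± 2.37 CPM in DMSO and 202 ± 3.19 CPM in dBRD9-A in GFP cells, but 89.4 ± 2.62 and 88.0 ± 1.78 CPM in SMARCB1 cells (SD, n = 3). The interaction of SLF2 was 0.29 (SE 0.04, adjusted p = 0.000243) and turned to -0.21 under spike-in scaling (adjusted p = 0.0504). ZNF143, a zinc finger factor found at CTCF sites, read 21.3 ± 0.743 CPM in DMSO and 28.7 ± 0.854 CPM in dBRD9-A in GFP cells, but 23.4 ± 0.327 and 25.9 ± 0.757 CPM in SMARCB1 cells (SD, n = 3). The interaction of ZNF143 was -0.27 (SE 0.06, adjusted p = 0.0134), and -0.78 under spike-in scaling (adjusted p = 4.92e-07).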

How the results depend on the processing

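Of 940 values of single members under an alternative, 895 kept their side of the threshold, 43 of these with the other sign and called under neither setting (4 of the 43 under spike-in scaling). A further 6 lost and 22 gained a call with the direction kept, and 17 that were called under at least 1 of the settings turned, all 17 under spike-in scaling. In SMARCB1 against GFP cells in DMSO these were SMC3 (0.076), STAG1 (0.15) and PDS5A (0.15). In dBRD9-A they were CTCF (-0.18), RAD21 (-0.18), SMC1A (-0.33), STAG1 (-0.29), NIPBL (-0.26) and WAPL (-0.23). For dBRD9-A in GFP cells they were SMC1A (0.34), SMC3 (0.28), STAG2 (0.35) and WAPL (0.34), and for the interaction SMC3 (-0.47), STAG1 (-0.44), STAG2 (-0.47) and WAPL (-0.45). Spike-in scaling moved the count of called members from 6 to 10 for SMARCB1 in dBRD9-A, from 0 to 10 for dBRD9-A in GFP cells and from 0 to 10 for the interaction. How the spike-ins were added is not stated, and the cause was not tested. NIPBL was 1 call for dBRD9-A in GFP cells with no filter and 1 in a fit of the 2 groups alone. Leaving out 1 library gave 5 to 6 calls for SMARCB1 in DMSO, 6 to 7 in dBRD9-A and 0 in the other 3 comparisons. The ratio of STAG2 to STAG1 ranged from -0.28 to -0.26 and that of PDS5B to PDS5A from 0.60 to 0.63 in those fits (log2).

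Over all genes tested, libraries with the same replicate number did not deviate together (correlations from -0.056 to 0.0611 over 18 pairs). This does not exclude a pairing for single genes. Replicate 3 had the highest PDS5B to PDS5A ratio in each group (0.163, 0.166, 0.263 and 0.251, GFP before SMARCB1 cells and DMSO before dBRD9-A in each). Whether the numbers name pairs was not tested further. A replicate block gave 6, 6, 0, 0 and 0 calls in the order of the report. With libraries paired by replicate number, the differences in log2 ratio were -0.27 and 0.62 (exact permutation p = 0.03125, n = 6 pairs). That p is the smallest that this number of pairs can give.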
